A study of Mus musculus with 208 samples.

Results

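Morulae sired by Rag2-/- males were compared with morulae sired by wild-type males, to ask whether the immune state of a father is reflected in the RNA of the early embryo. The RAG×WT group held 28 single morulae made by in vitro fertilization of eggs from wild-type mice with sperm of Rag2-/- mice, which carry no T or B cells. The CR×CR group held embryos of conventionally raised C57BL/6 parents on both sides. The Rag2-/- mice came from Jackson Laboratories and the conventionally raised mice from Charles River, so vendor and genotype cannot be told apart. Eggs of both groups came from superovulated females of 4 to 6 weeks, and embryos were cultured to 72 h, when the morula is reached. The whole series had 208 samples, of which 88 were morulae, and each morula was sequenced on its own as polyadenylated RNA. How many fathers and which fertilization each morula came from is not given in the sources used here. The p-values therefore measure the spread between embryos, some of which may share parents, and a difference between fathers or fertilizations cannot be told apart from one between genotypes.

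The 43 CR×CR morulae fell into 2 sets by a pair of genes, and only the set of the RAG×WT embryos was used. The 22 CR×CR morulae used were selected on measured values, as those in which Mtarc2, a mitochondrial reductase, was above Marchf2, a ubiquitin ligase. Mtarc2 had a lowest, median and highest level of 11.1, 22.4 and 52.6 TPM (a gene's share of all transcripts in the embryo, scaled to a fixed total) in the RAG×WT morulae, and of 12.7, 27 and 62.9 TPM in the 22 CR×CR morulae. In the other 21 CR×CR morulae it ranged from 0 to 15.3 TPM, while Marchf2 ranged from 16.9 to 45.1 TPM. The CR×CR embryo nearest to the limit on the inside had 12.7 TPM of Mtarc2 and 6.73 TPM of Marchf2, and the nearest on the outside had 7 and 16.9 TPM. Both genes chose the controls, so their levels carry no test. All 28 RAG×WT morulae had Mtarc2 above Marchf2. The 2 genes traded levels between the sets. Medians of Mtarc2 and Marchf2 were 27 and 0.875 TPM in the 22 CR×CR morulae used and 2.47 and 30.5 TPM in the other 21. Whether each name stands for the same gene in both sets was not tested. What the sets stand for is not given in the sources used here.

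A morula is a compact ball of cells that still divides without growth. It has switched from the stored RNA of the egg to its own genome, and its outer cells begin the trophectoderm programme that builds the placenta, while inner cells keep pluripotency genes active. Rag2 encodes a subunit of the recombinase that assembles antigen receptor genes in lymphocytes, and it is not a gene that embryos use at this stage. Embryos of a Rag2-/- father and a wild-type mother inherit 1 intact copy.

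Markers of the labelled stage were present. Of the 12 below, 10 also passed the filter in 4-cell embryos, so passing it does not by itself set the stages apart. Levels can differ all the same. In CR×CR embryos of the other set the median of Krt8 was 8.83 TPM at the 4-cell stage and 574 TPM in morulae. That of Krt18 was 4.72 and 412 TPM. Levels of the other members at the 4-cell stage are not given here. All 12 genes of a morula list (among them Pou5f1, Cdx2, Nanog and Cdh1) passed the filter on low values, and their summed level ranged from 1293 to 5015 TPM in RAG×WT morulae and from 2140 to 5710 TPM in CR×CR morulae. Rag2 was listed at 0 in all 28 RAG×WT morulae and in 21 of 22 CR×CR morulae, and Rag1 at 0 in 27 of 28 RAG×WT and in 22 of 22 CR×CR morulae, so neither gene checks the paternal genotype here. The summed level of 18 cumulus and granulosa cell markers ranged from 4.98 to 66.8 TPM in RAG×WT and from 4.45 to 38.7 TPM in CR×CR morulae, and 1 of them passed the filter. That of 19 sperm and testis transcripts ranged from 3.96 to 59.6 TPM in RAG×WT and from 1.98 to 55.3 TPM in CR×CR morulae. The number of genes at 1 TPM or more ranged from 8395 to 10719 in RAG×WT and from 8773 to 10845 in CR×CR morulae. TPM values keep no read depth, so the depth behind each value is unknown.

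Few genes separated the groups. Of 10330 genes tested, 3 rose in RAG×WT morulae (0.029%) and 0 fell (0%), at an adjusted p under 0.05 and a change of more than 1 log2 unit (limma on log2(TPM + 0.5), Benjamini-Hochberg over all genes). They were Dhcr7, Erdr1 and BC051019, the last of which lies outside the naming rule and is named because the calls are so few. No other gene reached an adjusted p under 0.05 at any fold. At an unadjusted p under 0.05, 987 genes passed (9.55%), 256 of them higher (2.48%) and 731 lower (7.08%), a split that became 430 higher and 505 lower when embryos were scaled by median ratios. A rank-sum test on the same values called 0 genes and gave 1192 at an unadjusted p under 0.05.

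Dhcr7 encodes 7-dehydrocholesterol reductase, an enzyme of the last steps of cholesterol synthesis. The gene lies on chromosome 7, positions 143823167 to 143848410 (GRCm38). It had 7.43, 36.5 and 57.6 TPM (lowest, median, highest) in RAG×WT morulae and 4.21, 14.8 and 25.4 TPM in CR×CR morulae. Of the 28 RAG×WT embryos, 20 lay above the highest CR×CR embryo, and none of the 22 CR×CR embryos reached the RAG×WT median. The log2 fold change was 1.15 (SE 0.20, adjusted p = 0.00751, limma). The call held without each of the 50 embryos in turn (adjusted p 0.000514 to 0.0191). It was lost in the rank-sum test (adjusted p = 0.0752), and the 16 settings other than leaving out an embryo gave an adjusted p of 1.42e-05 to 0.195. Embryos with more genes detected had more Dhcr7 in both groups (Pearson r 0.547 and Spearman rho 0.354 over 28 RAG×WT embryos, 0.684 and 0.592 over 22 CR×CR embryos), both values of a point coming from the same library. With the number of genes as a covariate the log2 fold change was 1.21.

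**Figure D1:**
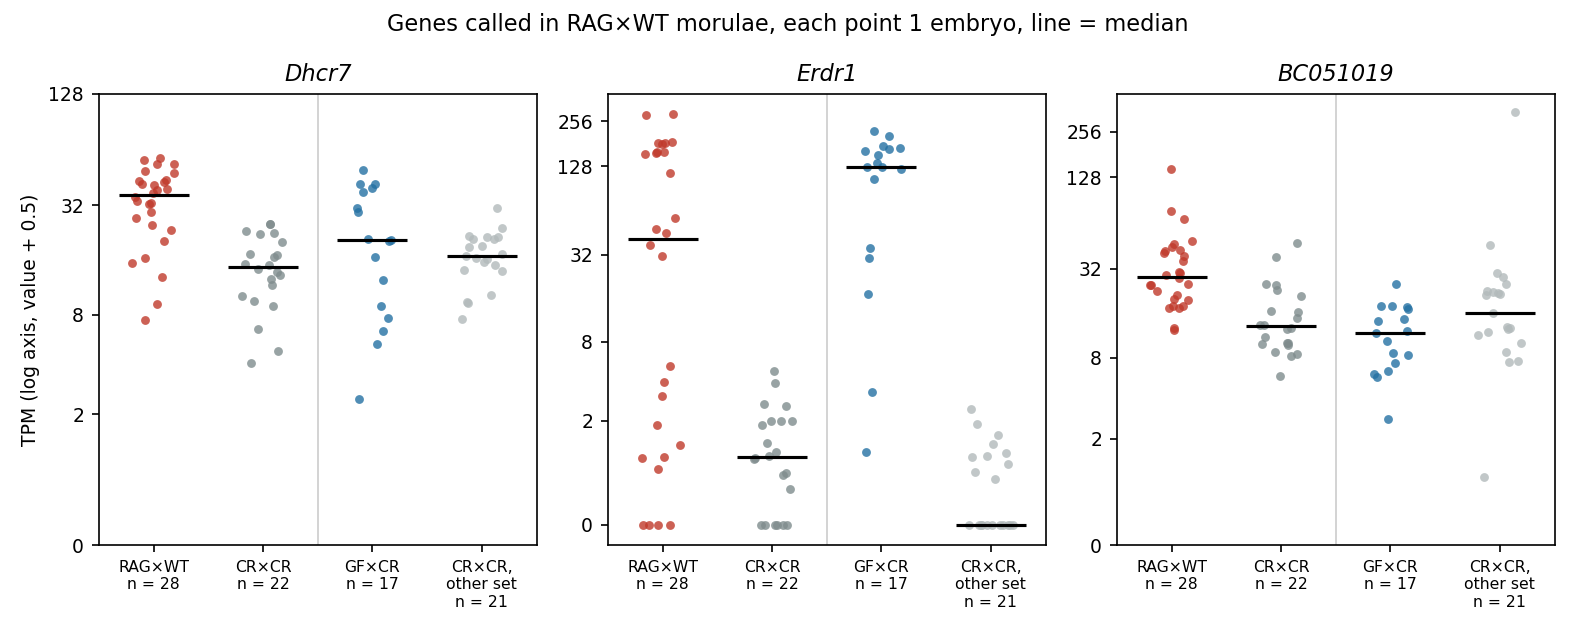
TPM of Dhcr7, Erdr1 and BC051019 in single morulae on a log axis (value + 0.5), each point 1 embryo and each line a median; the grey rule parts the 2 sets, each with its own CR×CR embryos. Most RAG×WT points lie above the CR×CR points for Dhcr7 (medians 36.5 TPM in RAG×WT and 14.8 TPM in CR×CR morulae), and the RAG×WT points for Erdr1 form a high and a low cluster.

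Dhcr7 was the only gene of the cholesterol pathway that passed the test. Of 23 cholesterol genes listed, 22 were tested, with a median log2 fold change of -0.15 against -0.05 over all genes. At the other end 4 members were lower at an unadjusted p under 0.05, a share of 18.2% against 7.08% of all genes. Scaling by median ratios left 1 such gene and quantile normalization 2. Single embryos moved that count too, to 1 without CR×CR replicate 31 or RAG×WT replicate 8 or 27 and to 2 without any 1 of 8 others. Sc5d, the desaturase that makes the substrate of DHCR7, had a median of 15.7 TPM in RAG×WT and 21.8 TPM in CR×CR morulae (log2 fold change -0.62, SE 0.21, unadjusted p = 0.00483, adjusted p = 0.388). Srebf2, the transcription factor that drives the pathway, had medians of 4.82 TPM in RAG×WT and 7.83 TPM in CR×CR morulae (log2 fold change -0.60, adjusted p = 0.622). These members were picked for their roles with the values already seen.

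**Figure D2:**
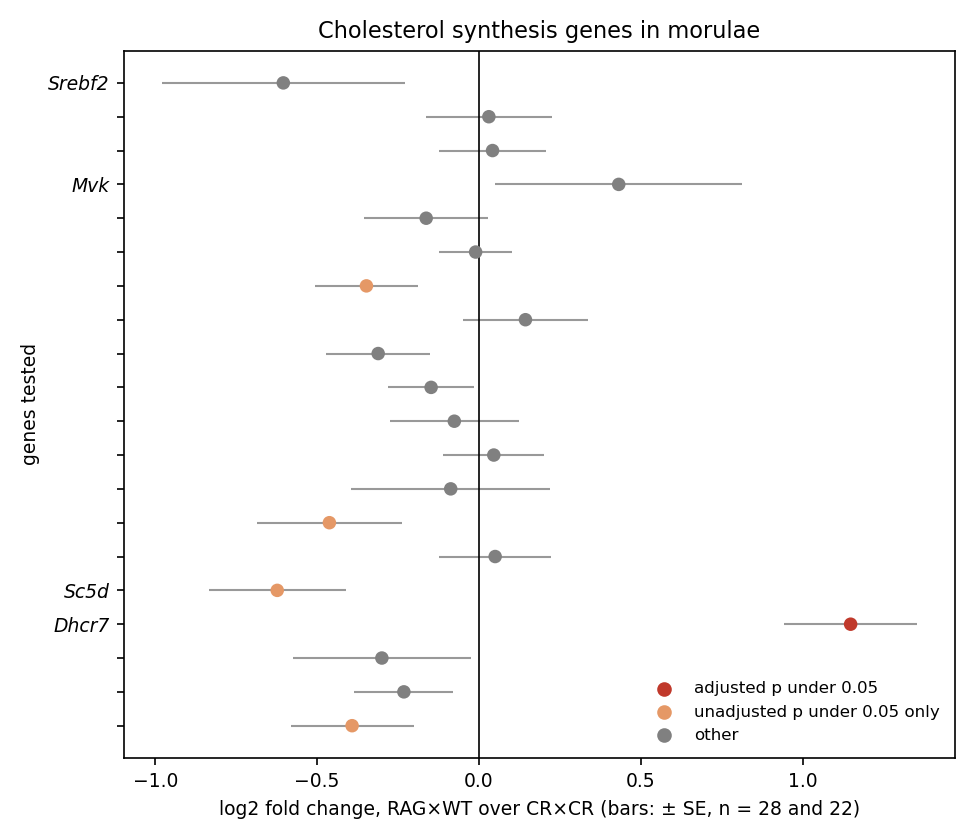
log2 fold change of RAG×WT over CR×CR morulae for 20 of the 22 cholesterol synthesis genes tested, those named in the text labelled, with bars of ± 1 SE (28 and 22 embryos) and colours for the p-value class. Dhcr7 stands alone to the right at 1.15, and the next highest gene shown is Mvk at 0.43.

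Erdr1, named for its part in erythroid differentiation, lies in the pseudoautosomal region that the X and Y chromosomes share (X, 170010526 to 170018797, GRCm38). It had 0, 41.1 and 287 TPM (lowest, median, highest) in RAG×WT morulae and 0, 0.925 and 4.93 TPM in CR×CR morulae. RAG×WT embryos fell into a low cluster of 12 between 0 and 5.31 TPM and a high cluster of 16 from 31.5 TPM upwards, and 17 of 28 exceeded every CR×CR embryo. The log2 fold change was 3.66 (SE 0.72, adjusted p = 0.0241, limma), with a range of 0.00609 to 0.0491 for the adjusted p when each embryo was left out. The call was lost with a pseudocount of 0.1 (adjusted p = 0.0921), with no filter on low values (0.061), without the 7 embryos least like the others (0.0544) and in the rank-sum test (0.163), within a range of 1.57e-06 to 0.163 over 15 settings. The gene did not pass a filter at 5 TPM. Reads of the X and Y copies of a pseudoautosomal gene cannot be told apart in these values.

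Erdr1 was then read beside Y-linked transcripts, which mark embryos that received a Y chromosome. The summed level of Ddx3y, Eif2s3y, Kdm5d and Uty was 10 TPM or more in 10 of 28 RAG×WT and in 13 of 22 CR×CR morulae. The 10 RAG×WT morulae with Y-linked transcripts had 56.9, 170 and 287 TPM of Erdr1 (lowest, median, highest), and none of them was in the low cluster. The other 18 had 0, 2.51 and 284 TPM, with 6 of 18 in the high cluster. These 18 were not alike in Xist, an X-linked RNA. RAG×WT replicates 14, 21 and 23 had 1.23, 0.45 and 0.03 TPM of Xist and 0.93, 0 and 1.22 TPM of Erdr1. CR×CR morulae without Y-linked transcripts had at least 9.67 TPM of Xist. RAG×WT replicate 11 had 67.7 TPM of Xist with 3.18 TPM of Erdr1, and replicate 19 had 2.97 TPM with 37.4 TPM. Erdr1 was not tested against Xist. CR×CR morulae stayed at or below 4.93 TPM in either class. Fitted within the class with Y-linked transcripts, the log2 fold change was 7.06 (SE 0.80, adjusted p = 6.28e-08, limma), and within the class without them it was 1.57 (SE 0.77, unadjusted p = 0.0471, adjusted p = 0.645). The difference between the classes was 5.48 (SE 1.11), with an unadjusted p of 8.82e-06 and an adjusted p of 0.0911 over all genes, so it missed the threshold. The fits by class were chosen after the data were seen, in the same embryos that gave the Erdr1 call. Their p-values for Erdr1 are therefore not independent of that choice. Dhcr7 had median levels of 38.9 TPM with and 33.3 TPM without Y-linked transcripts in RAG×WT morulae, against 15.1 and 13.4 TPM in CR×CR morulae.

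**Figure D3:**
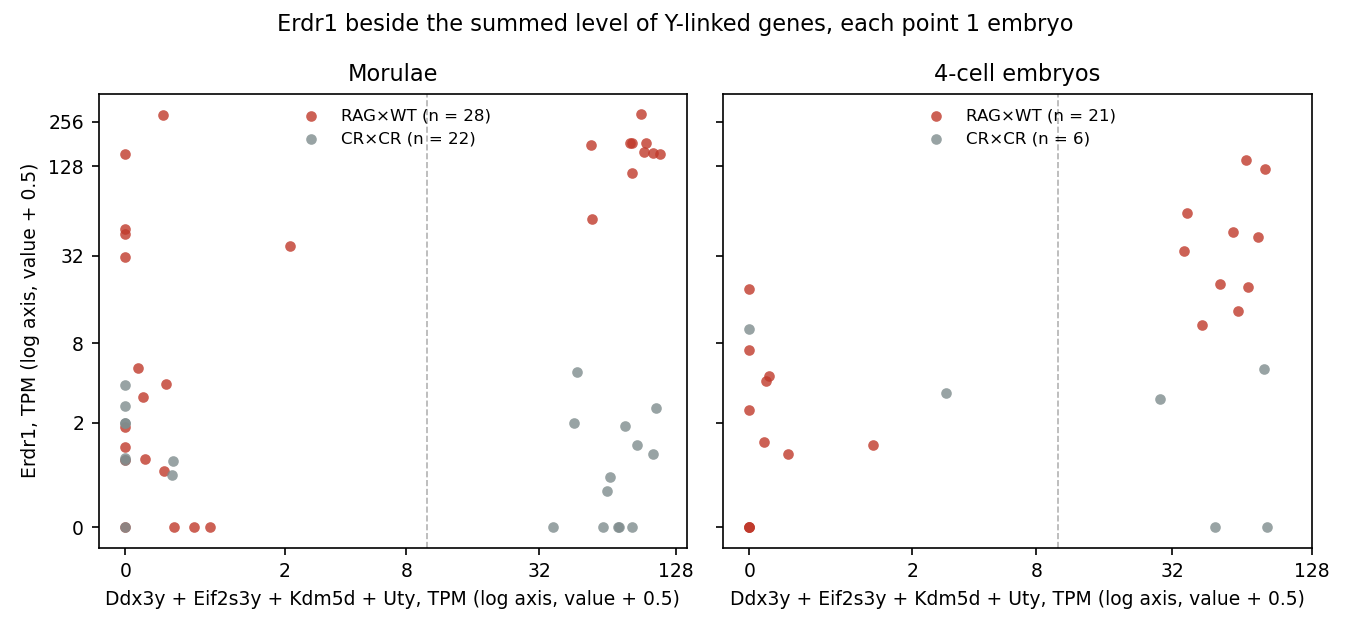
Erdr1 TPM against the summed TPM of 4 Y-linked genes in single morulae (left) and 4-cell embryos (right) on log axes (value + 0.5), each point 1 embryo, the dashed line at 10 TPM. In morulae the RAG×WT embryos right of the line have 56.9 TPM of Erdr1 or more and CR×CR embryos at most 4.93 TPM. In 4-cell embryos right of the line RAG×WT embryos have 10.7 TPM or more and CR×CR embryos at most 5.18 TPM. The highest CR×CR 4-cell embryo (10.1 TPM) lies left of the line.

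The same classes were read in other embryos. At the 4-cell stage (46 h), 21 RAG×WT embryos had 0, 10.7 and 142 TPM of Erdr1 and 6 CR×CR embryos of the same set had 0, 3.25 and 10.1 TPM. The 10 RAG×WT embryos with Y-linked transcripts ranged from 10.7 to 142 TPM and the 11 without them from 0 to 18.9 TPM. Within the class with Y-linked transcripts the log2 fold change was 4.64 (SE 0.89, unadjusted p = 1.35e-05, adjusted p = 0.153, limma). Within the class without them it was -1.53 (SE 1.16, unadjusted p = 0.199). The difference between classes in the RAG×WT effect was 6.16 on the log2 scale (SE 1.47, unadjusted p = 0.000215, adjusted p = 0.775), with 4 and 2 CR×CR embryos in the classes. In GF×CR morulae, sired by germ-free males, the 6 embryos with Y-linked transcripts ranged from 30.3 to 219 TPM and the 11 without them from 1.05 to 204 TPM, of which 9 had 10 TPM or more. GF×CR replicates 9 and 10, with 1.05 and 3.38 TPM of Erdr1, had 0.02 and 0.13 TPM of Xist. There the difference in effect was 1.15 (SE 1.03, adjusted p = 0.984).

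BC051019, on chromosome 7 at 109712181 to 109723934 (GRCm38), had 12.5, 28.3 and 145 TPM (lowest, median, highest) in RAG×WT morulae and 5.96, 13.2 and 47.5 TPM in CR×CR morulae. The groups overlapped, with 4 of 28 RAG×WT embryos above the highest CR×CR embryo and 26 of 28 above the CR×CR median. The log2 fold change was 1.05 (SE 0.21, adjusted p = 0.0286, limma). The call was lost without any 1 of 13 embryos (CR×CR replicates 22, 23, 26, 28, 38, 40, 41 and 42 and RAG×WT replicates 3, 4, 5, 19 and 26), with a log2 fold change of 0.97 to 1.03. Without RAG×WT replicate 26 it was lost by its size alone (0.97, adjusted p = 0.0274), and without each of the other 12 the adjusted p was 0.0512 to 0.0712. It was also lost in 7 of 16 other settings, over which the adjusted p ran between 0.00834 and 0.13.

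The 3 genes were looked up in embryos of another stage and of other fathers. In 4-cell embryos 0 of 11350 genes were called by limma (0%), and 388 reached an unadjusted p under 0.05 (3.42%). Only 6 CR×CR embryos stood on the control side, and the median SE was 0.55 against 0.22 in morulae, so smaller changes could be missed. The rank-sum test called 0 (426 at an unadjusted p under 0.05). With 6 controls its p-value cannot fall low enough for a call unless many genes tie at the lowest value, so that 0 is no further evidence. Dhcr7 had medians of 19.2 TPM in RAG×WT and 6.37 TPM in CR×CR 4-cell embryos, and its log2 fold change was 1.12 (SE 0.57, unadjusted p = 0.0575). That of Erdr1 was 1.81 (SE 1.04, unadjusted p = 0.0907). BC051019 had medians of 3.74 TPM in RAG×WT and 7.70 TPM in CR×CR 4-cell embryos (log2 fold change -0.71, unadjusted p = 0.432). In 4-cell embryos of germ-free parents the median of Dhcr7 was 10.3 TPM with germ-free fathers (GF×CR, 15 embryos) and 16.1 TPM with germ-free mothers (CR×GF, 9 embryos), against 3.47 TPM in the 19 CR×CR embryos of their set, a difference that was not tested.

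In GF×CR morulae, set against the 21 CR×CR morulae of their own set, 453 of 9883 genes were called (4.58%), of which 9 rose (0.0911%) and 444 fell (4.49%), a split of 48 and 61 after quantile normalization. With the number of detected genes as a covariate the 453 calls became 1. Erdr1 rose by 6.31 on the log2 scale (adjusted p = 3.32e-12), while the values were 0.11 for Dhcr7 (adjusted p = 0.818) and -0.63 for BC051019 (adjusted p = 0.235). The 2 comparisons share no embryo, so their effects were compared in 1 limma contrast over all 88 morulae. In that contrast the RAG×WT effect was higher for 338 of 11609 genes (2.91%) and lower for 156 (1.34%) at an adjusted p under 0.05, with a median difference of 0.18. The RAG×WT effect exceeded the GF×CR effect by 1.68 for BC051019 (SE 0.41, adjusted p = 0.0144). For Dhcr7 the difference was 1.04 (SE 0.34, adjusted p = 0.0558) and for Erdr1 -2.64 (SE 0.95, adjusted p = 0.0811), and both missed the threshold. The 3 genes were picked on RAG×WT values that enter this contrast, which was not refitted with detected genes as a covariate.

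At the threshold the study names for embryos, an unadjusted p under 0.05 and a change of more than 1 log2 unit, 78 genes passed (0.755%), of which 29 were higher (0.281%) and 49 lower (0.474%) in RAG×WT morulae, or 32 and 27 after quantile normalization. Of the 29, 28 were tested in 4-cell embryos, and 2 of them, Snai1 and Omt2b, were higher there at an unadjusted p under 0.05, against 1.89% of all genes tested there. Snai1, a repressor that acts in epithelial to mesenchymal transition, had medians of 10.6 TPM in RAG×WT and 5.27 TPM in CR×CR morulae (log2 fold change 1.27, adjusted p = 0.155) and a log2 fold change of 1.26 in 4-cell embryos. Of the 49, 34 were tested in 4-cell embryos, and 0 were lower there by limma at an unadjusted p under 0.05 (1.53% of all genes). In GF×CR morulae 48 of the 49 were tested and 8 were lower at that limit, against 25.5% of all genes. Of the 29, all were tested there and 2 were higher, Erdr1 and 2410007B07Rik, against 5.88% of all genes (31.4% passed in either direction). Cox20, an assembly factor of cytochrome c oxidase, had 0, 11.2 and 45.0 TPM (lowest, median, highest) in RAG×WT and 3.35, 25.6 and 52.6 TPM in CR×CR morulae (log2 fold change -1.66, adjusted p = 0.155). Nnat, a paternally expressed imprinted gene, had medians of 0.285 TPM in RAG×WT and 2.06 TPM in CR×CR morulae (log2 fold change -1.23, adjusted p = 0.155). These genes were named after their values were seen.

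Transcripts that mark the 4-cell and the morula stage were counted next. Stage genes were taken from the CR×CR embryos of the other set (19 4-cell embryos and 21 morulae) as genes at least 4 times as high in median at 1 stage, with 10 TPM or more. Of 475 genes higher at the 4-cell stage 421 were tested, and 36 of them were higher in RAG×WT morulae at an unadjusted p under 0.05 (8.55%, against 2.48% of all genes). Their median log2 fold change was 0.12. Of 574 genes higher at the morula stage all were tested, 72 were lower (12.5%, against 7.08%) and 2 were higher, Dhcr7 being 1 of these, with a median of -0.23. Both counts rest in part on single CR×CR embryos. Without CR×CR replicate 42 they were 55 and 124, and without CR×CR replicate 23 the count of 4-cell genes was 18. With the Y-linked level as a covariate the counts were 20 and 50. Apart from Dhcr7, none of these genes reached an adjusted p under 0.05. Counts of members under other settings, here and for the other lists, are given without the share over all genes in the same fit. That share can move between settings too, so a changed count need not mean a changed excess over all genes.

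**Figure D4:**
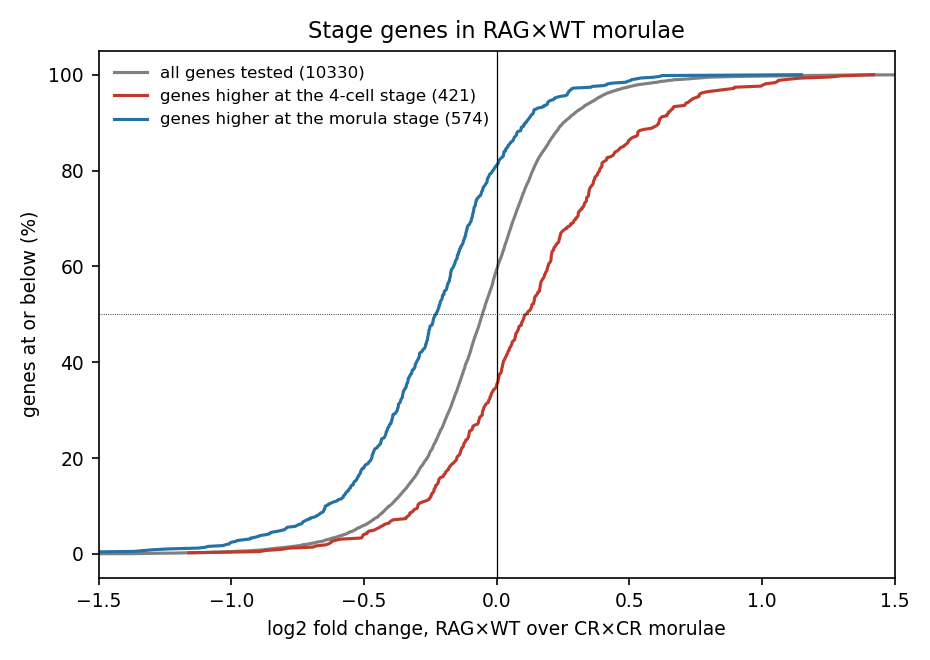
Share of genes (%) at or below each log2 fold change of RAG×WT over CR×CR morulae, for all 10330 genes tested, 421 genes higher at the 4-cell stage and 574 higher at the morula stage. The curve of the 4-cell genes lies to the right of all genes (median 0.12 against -0.05) and that of the morula genes to the left (median -0.23).

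Lineage genes did not pass the test. Of 25 trophectoderm genes 21 were tested, 0 reached an adjusted p under 0.05, and 4 were lower at an unadjusted p under 0.05 (19%, against 7.08% of all genes), with a median log2 fold change of -0.25. Krt8, a keratin of the first epithelium, had 86.7, 384 and 1130 TPM (lowest, median, highest) in RAG×WT and 92.1, 807 and 1589 TPM in CR×CR morulae (log2 fold change -0.72, SE 0.27, unadjusted p = 0.00935, adjusted p = 0.417). Its partner Krt18 had 38.1, 251 and 1241 TPM in RAG×WT and 82.1, 442 and 1487 TPM in CR×CR morulae (log2 fold change -0.83, SE 0.30, adjusted p = 0.417). The ranges of both keratins overlap nearly throughout. With array quality weights, which give less weight to embryos that deviate, Krt8 reached an adjusted p of 0.0483 and Krt18 one of 0.054. Cdx2 and Gata3, transcription factors of the trophectoderm, had log2 fold changes of -0.25 and -0.20 (adjusted p = 0.857 and 0.874), and Tead4, which acts above Cdx2, one of 0.16 (adjusted p = 0.705). Over 16 other settings the log2 fold change of Cdx2 ran between -0.999 and -0.03 (lowest adjusted p 0.275) and that of Gata3 between -1.03 and 0.04 (lowest adjusted p 0.195). A whole embryo was sequenced, so fewer cells of a lineage and less RNA per cell cannot be told apart.

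The pluripotency factors Pou5f1 and Nanog had medians of 1563 and 311 TPM in RAG×WT morulae, against 1406 and 309 TPM in CR×CR morulae. Their log2 fold changes were 0.14 (adjusted p = 0.622) and -0.24 (adjusted p = 0.845). Sox2 was near the filter, with medians of 0.215 TPM in RAG×WT and 1.19 TPM in CR×CR morulae (log2 fold change -0.52, adjusted p = 0.633). Cdh1, the cadherin of compaction, had medians of 118 TPM in RAG×WT and 110 TPM in CR×CR morulae (log2 fold change 0.14, adjusted p = 0.877, and -0.06 with array quality weights). Of 30 compaction and polarity genes tested, 0 reached an adjusted p under 0.05 and 3 were lower at an unadjusted p under 0.05 (10%, against 7.08% of all genes), a count of 0 without CR×CR replicate 23, 6 without replicate 33 and 5 without replicate 36 or 42.

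Ribosomal protein genes showed the largest share of higher members among the lists. Of 79 tested, 20 were higher at an unadjusted p under 0.05 (25.3%, against 2.48% of all genes) and 0 lower, 0 reached an adjusted p under 0.05, and 70 had a positive log2 fold change. The changes were small, with a median of 0.11. Rpl24, the member of smallest p, had 1050, 1607 and 2020 TPM (lowest, median, highest) in RAG×WT and 1085, 1370 and 1770 TPM in CR×CR morulae (log2 fold change 0.21, SE 0.058, adjusted p = 0.204). The count of higher members was 10 after quantile normalization, 1 against all 43 CR×CR morulae without a term for the set, 32 without CR×CR replicate 33 and 31 without RAG×WT replicate 24. In 4-cell embryos 0 of 80 were higher by limma at an unadjusted p under 0.05 and 1 was lower.

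Genes of energy supply did not pass the test either. Of 80 nuclear subunits of oxidative phosphorylation tested, 13 were lower at an unadjusted p under 0.05 (16.2%, against 7.08% of all genes), 1 was higher and 0 reached an adjusted p under 0.05, with a median of -0.06. The count of 13 was 4 after scaling by median ratios and 6 without CR×CR replicate 23 or 43. Of 19 glycolysis genes tested 3 were lower at that limit (15.8%), or 5 without CR×CR replicate 42. Pkm, the last enzyme of the pathway, had medians of 254 TPM in RAG×WT and 412 TPM in CR×CR morulae (log2 fold change -0.73, SE 0.31, adjusted p = 0.462).

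Of 24 imprinted genes tested, 5 were lower at an unadjusted p under 0.05 (20.8%, against 7.08% of all genes), 0 were higher and 0 reached an adjusted p under 0.05. They were Jade1, Mest, Meg3, Impact and Smoc1, named because they are so few. Nnat, whose values are given above, is imprinted as well but was not on the list, and its unadjusted p of 0.000242 is lower than that of any of the 5. The paternally expressed Mest had medians of 4.46 TPM in RAG×WT and 7.17 TPM in CR×CR morulae (log2 fold change -0.88, adjusted p = 0.445). The maternally expressed Meg3 had medians of 2.49 TPM in RAG×WT and 12.04 TPM in CR×CR morulae (log2 fold change -1.37, adjusted p = 0.445). Without CR×CR replicate 22 the count was 8, and over 16 settings other than leaving out an embryo it ran from 2 to 8. Among 39 cell cycle genes tested 5 were higher at an unadjusted p under 0.05 (12.8%, against 2.48% of all genes) and 1 was lower, the first count being 3 without CR×CR replicate 23 or 28. Ube2c, a ubiquitin-conjugating enzyme of mitotic exit, had medians of 1179 TPM in RAG×WT and 867 TPM in CR×CR morulae (log2 fold change 0.41, adjusted p = 0.388).

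**Figure D5:**
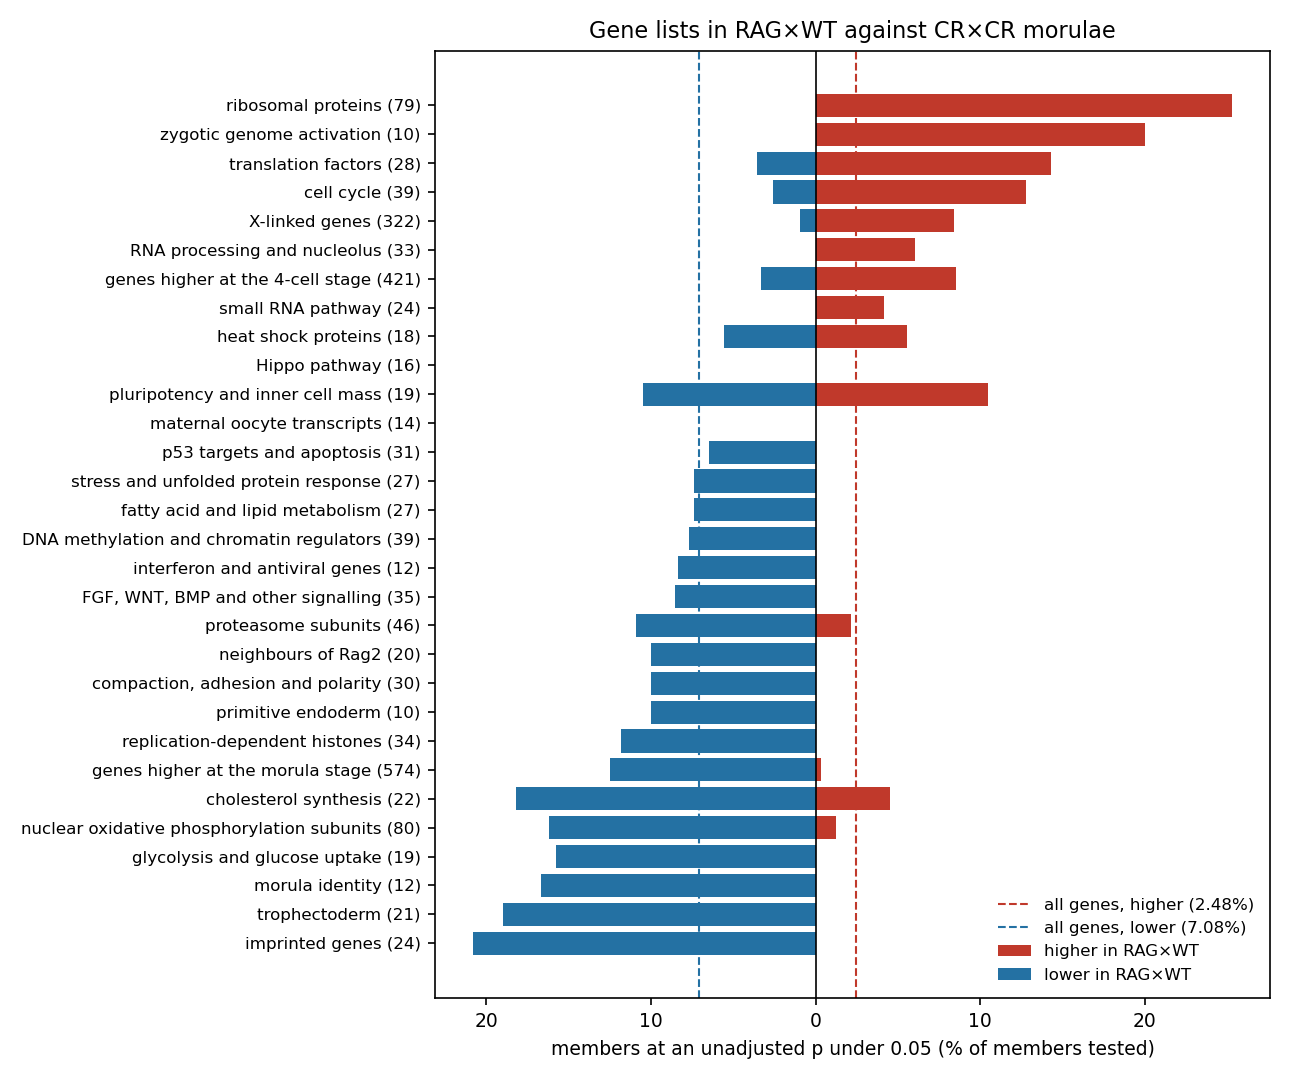
Share of tested members (%) of each gene list at an unadjusted p under 0.05, higher (right) or lower (left) in RAG×WT than in CR×CR morulae, with the number tested in brackets and dashed lines at the shares over all genes (2.48% and 7.08%). Ribosomal proteins reach 25.3% on the right and imprinted genes 20.8% on the left, and outside cholesterol synthesis and the X-linked list no list of pathway genes held a member at an adjusted p under 0.05.

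X-linked genes are given beside the Y-linked class, which held 10 of 28 RAG×WT and 13 of 22 CR×CR morulae. Of 322 tested, 27 were higher (8.39%, against 2.48% of all genes) and 3 lower at an unadjusted p under 0.05, with a median of 0.12, and only Erdr1 reached an adjusted p under 0.05. With the Y-linked level as a covariate 15 were higher and the median was 0.00. Around Rag2 on chromosome 2 (101624712 to 101632528, GRCm38), 20 of the 40 nearest protein-coding genes were tested, 0 reached an adjusted p under 0.05 and 2 were lower at an unadjusted p under 0.05 (10%, against 7.08% of all genes). Trp53i11, 1 of these, had medians of 13.9 TPM in RAG×WT and 25.3 TPM in CR×CR morulae (log2 fold change -1.03, adjusted p = 0.416). The other was Hsd17b12, a reductase of fatty acid elongation, with medians of 82.24 TPM in RAG×WT and 88.05 TPM in CR×CR morulae (log2 fold change -0.31, adjusted p = 0.48). Of 9 genes known to differ between C57BL/6 substrains 4 were tested, of which 1 was higher and 1 lower at an unadjusted p under 0.05. Ide, the insulin-degrading enzyme, had medians of 55.6 TPM in RAG×WT and 52.3 TPM in CR×CR morulae (log2 fold change 0.38, unadjusted p = 0.0333, adjusted p = 0.489). Wdfy1 had medians of 33.1 TPM in RAG×WT and 45.6 TPM in CR×CR morulae (log2 fold change -0.45, unadjusted p = 0.000368, adjusted p = 0.181). The part of strain background in these values was not tested.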

How the data were processed

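Single morulae and 4-cell embryos were lysed and their polyadenylated RNA was amplified and sequenced. The deposited tables hold TPM values that the authors made with RSEM on mm10, per the labels (versions not given in the sources used here), for 23845 genes, with no mitochondrial transcripts. No 2 embryos had identical values. CR×CR controls were the morulae with Mtarc2 above Marchf2. TPM was tested on log2(TPM + 0.5) with limma 3.58.1 in R 4.3.3 (moderated with a trend, two-sided, Benjamini-Hochberg), over genes at 1 TPM or more in at least as many embryos as the smaller group held, and a fold change on that scale understates low genes. A call needed an adjusted p under 0.05 and a change of more than 1 log2 unit. The fits were tested on simulated data. Named genes were up to 15 called in each direction (predicted names left out), Erdr1, Rag1, Rag2, lineage factors and neighbours of Rag2 by smallest p. Others were chosen after their values were seen. Members and lists were chosen with earlier results of these data known. Coordinates and chromosomes came from RefSeq GRCm38.p6. Alternatives covered pseudocount, filter, scaling, weights, covariates, controls, a rank-sum test, a replicate block and leaving out embryos. Tables of adult tissues were not used. The values of 2 cholesterol genes are not reported here.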

Additional observations from a re-analysis of the deposited data

Results flagged for a closer look

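BC051019 was among the genes whose 2 paternal effects differed, of which there were 338 with a higher RAG×WT effect (2.91%) and 156 with a lower one (1.34%) among 11609 tested, with a median difference of 0.18. It was looked at because it had been called in RAG×WT morulae, whose values also enter this contrast, so the difference is not independent of that choice. The RAG×WT effect exceeded the GF×CR effect by 1.68 on the log2 scale (SE 0.41, adjusted p = 0.0144, limma over 88 morulae). The RAG×WT log2 fold change was 1.05 and the GF×CR log2 fold change -0.63, each against CR×CR morulae of its own set. The highest value among the 21 CR×CR morulae of the GF×CR comparison was 346 TPM, against a median of 16.1 TPM there. This contrast was added after the data were seen.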

How the results depend on the processing

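The 3 calls in RAG×WT morulae became 1 with no filter, 15 with array quality weights, 5 with the number of detected genes as a covariate (also with the Y-linked level beside it), 38 against all 43 CR×CR morulae with no set term and 0 in the rank-sum test, and ranged from 2 to 4 with each embryo left out. The 78 genes at the study's threshold became 152 and 42 with pseudocounts of 0.1 and 1, 46 with a filter at 5 TPM and 786 with the replicate block. The replicate block over 7 same-numbered pairs gave 2 calls, both lower. Under it the adjusted p was 0.195 for Dhcr7, 0.0773 for Erdr1 and 0.0928 for BC051019. Same-numbered embryos correlated between -0.102 and 0.165, with 1 of 7 pairs over 0.1. So few pairs cannot settle whether the numbers pair embryos, and the sources used here do not say. The 0 calls in 4-cell embryos became 240 with all CR×CR embryos and no set term. The 453 calls in GF×CR morulae became 268 with a pseudocount of 1, 300 with no filter, 279 at 5 TPM, 109 after quantile normalization, 112 with array weights, 1 with detected genes as a covariate, 873 with all controls and 75 with the replicate block. The counts of 4-cell genes higher and morula genes lower (36 and 72) were 60 and 155 with array weights, 116 and 122 with all controls, 136 and 194 with the block, 66 and 129 without the 7 embryos of median correlation under 0.93 and 22 and 38 with both covariates. The first was 20 with the Y-linked covariate and the second 116 in the rank-sum test. With each embryo left out they ranged from 18 to 55 and from 51 to 124. Shares over all genes in the same fits are not given beside these counts. The causes were not tested. Leaving out each embryo, both covariates together, the low-correlation setting and the fits by Y-linked class were chosen after seeing the data. No read depth can be had from TPM.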
